A study of Xenopus laevis with 4 samples.

Results

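The genes described here are hes1, hes5 and hey1, repressors that Notch signalling switches on. They were taken by name: every probe set whose gene symbol in the platform annotation, apart from the ending .L or .S, is hes1, hey1 or hes5 with any copy number. This gave 14 of the 32539 probe sets besides controls, and they read 12 of the 11303 named genes: both copies of hes1, 9 hes5 genes and 1 copy of hey1. The endings .L and .S mark the long and short subgenomes of this allotetraploid frog, whose paired copies are called homeologs.

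The tissue was presumptive ectoderm of Xenopus laevis, cut from embryos at stage 9 to 10 and cultured on fibronectin until about stage 14. Embryos of both groups had received synthetic mRNA for ICD, in this field the intracellular domain of Notch, at the 2-cell stage, and those of one group were co-injected with mRNA for MCI-HGR, multicilin joined to a hormone-binding domain that dexamethasone activates. Both groups were given dexamethasone from stage 11.5 and harvested after 5 h for 1-colour Affymetrix arrays, 2 per group. The groups are called ICD and ICD with MCI-HGR, and both carried ICD and dexamethasone, so the comparison asks what multicilin adds when Notch is held on. No array lacks ICD, so whether ICD raised hes1, hes5 or hey1 in these explants cannot be read from them. Injected mRNA need not reach every cell, and an explant is read as a whole, so fewer cells that use a gene and less RNA per cell cannot be told apart.

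When a Notch receptor meets its ligand, its intracellular domain is cut free, enters the nucleus and turns the DNA-binding protein RBPJ from a repressor into an activator. Hes and Hey genes are the best known genes that it activates. They encode basic helix-loop-helix proteins that repress other genes, in part with Groucho/TLE corepressors, and they hold down the genes that start differentiation. In frog skin this lateral inhibition limits how many cells become multiciliated, and multicilin acts downstream of it.

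Signal is the authors' MAS5 value on a linear scale, and log2 differences are ICD with MCI-HGR minus ICD. Folds between groups come from the means of log2 signal, not from means of the linear signal. The labels number the arrays of each group 1 and 2, and the difference was taken within each number as well as between the groups. The terms rose and fell are kept for probe sets with an adjusted p at or below 0.05 (limma, Benjamini-Hochberg over all 24404 probe sets kept) in a fit that has the replicate number as a block. Without the block, limma called 0 of the 14 probe sets and 0% of all 24404 in either direction, and the smallest adjusted p over all was 0.101. At an unadjusted p of 0.05 that fit had 2 of the 14 higher, against 2.92% of all, and 1 lower, against 0.508%. Each of the 14 but hes1.L, hes1.S and hes5.3.L had an adjusted p of 0.999994 in it (limma). With the block, 2 of the 14 rose, against 4.68% of all, and 7 fell, against 2.26% of all. These 7 come from 5 genes, since hey1.S and hes5.5.S were each read by 2 probe sets. Counted by gene, with 1 probe set each, 2 of the 12 rose, against 5.74% of 9380 genes, and 5 fell, against 2.56%.

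Arrays with the same number were alike: over all probe sets kept, the log2 difference between numbers in one group correlated with that in the other at r = 0.745, a value across probe sets, which are not replicates. Number 1 had median signals of 45.4 (ICD) and 44.2 (with MCI-HGR), and number 2 of 37.6 and 37.1. Multicilin itself (mcidas.S) read 9.7 and 17.1 on the ICD arrays and 384.2 and 141.5 with MCI-HGR, which follows the labels; the probe set may read the injected mRNA. The actin control's middle probe set divided by its 3' one gave 0.64 and 0.652 for ICD and 0.569 and 0.401 with MCI-HGR, and the 5' to 3' quotient of the dap control was 0.062 and 0.0646 for ICD and 0.0415 and 0.028 with MCI-HGR. The dap control is a bacterial sequence, so its quotient does not read explant RNA. Both quotients were lower with MCI-HGR in both numbers, and the part of this difference in the results below was not tested. All 14 probe sets were above the highest of 17 tag controls, which read 9.2 to 13, on all 4 arrays. With so few arrays, precision is low throughout.

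**Figure D1:**
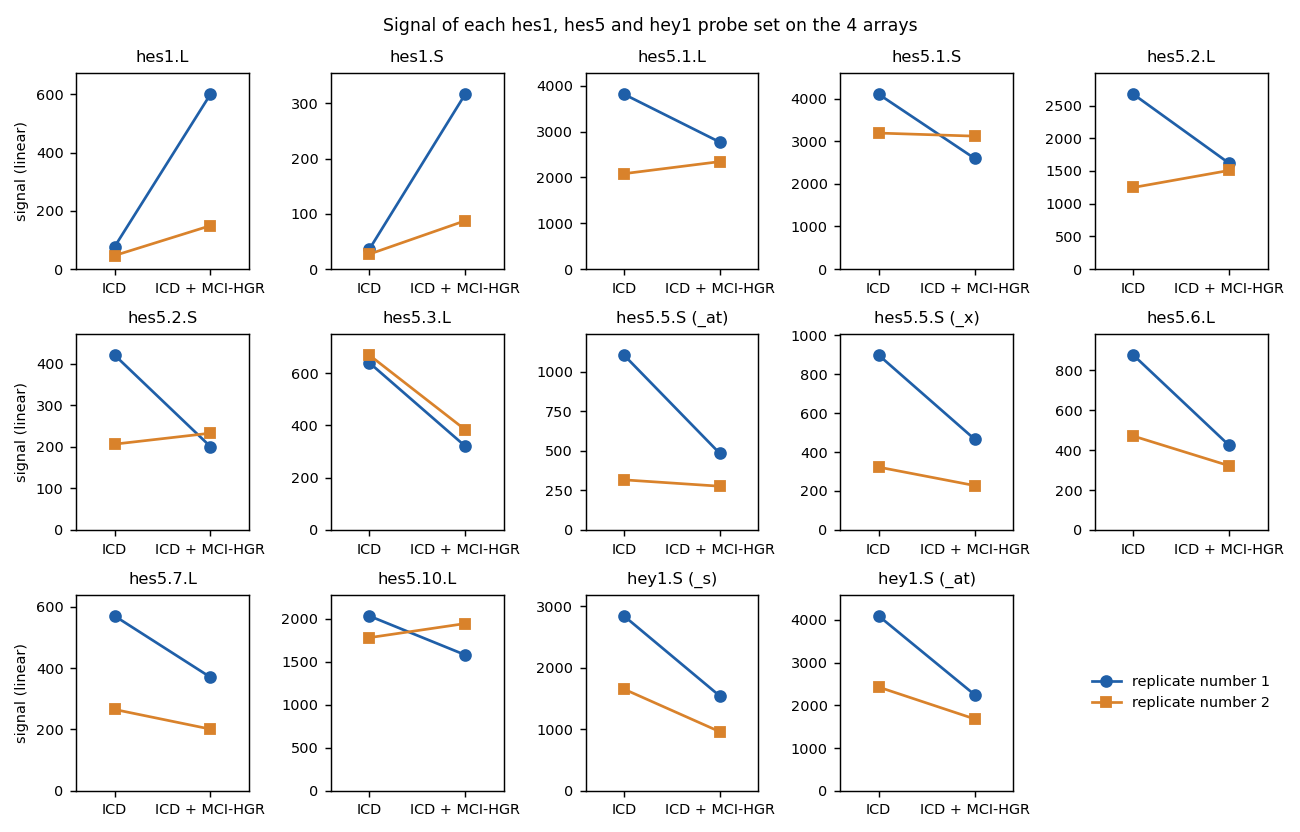
Signal (linear axis from 0, own scale in each panel) of the 14 probe sets on the ICD arrays and the arrays with MCI-HGR; circles are replicate number 1, squares number 2, and lines join arrays of the same number. Both lines climb for hes1 and both fall for hes5.3.L, hes5.5.S, hes5.6.L, hes5.7.L and hey1.S, while the lines of hes5.1.L, hes5.2.L, hes5.2.S and hes5.10.L go opposite ways. Both lines of hes5.1.S go down, that of number 2 from 3191.2 to 3119.4.

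The hes1 genes were higher with MCI-HGR in both homeologs and in both replicate numbers. hes1, known in the frog as hairy1, is a relative of the fly pair-rule gene hairy and is used in many tissues to keep progenitor cells undifferentiated. hes1.L read 76.6 and 46.3 on the ICD arrays and 600.1 and 148.9 with MCI-HGR. hes1.S read 35.7 and 26.9 on the ICD arrays and 316.4 and 87.4 with MCI-HGR. The ICD values of hes1.S were below the median signals of those arrays, 45.4 and 37.6. In both homeologs the lower array with MCI-HGR stood above the higher ICD array, so the groups did not overlap. Among all probe sets kept, 11.5% had both arrays with MCI-HGR above both ICD arrays and 29.2% were higher in both numbers.

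By group means hes1.L rose 5.02-fold, a log2 difference of 2.33 ± 0.72 (SE without the block, n = 2 per group; limma, adjusted p = 1.90e-06 with the block and 0.979 without). hes1.S rose 5.37-fold, a log2 difference of 2.42 ± 0.67 (SE without the block, n = 2 per group; limma, adjusted p = 8.72e-06 with the block and 0.781 without). The size of the rise was unequal between the numbers. hes1.L was 7.83-fold higher in number 1 and 3.22-fold higher in number 2, and hes1.S was 8.86-fold and 3.25-fold higher. The homeologs thus had like folds within each number, and the larger gap lay between the numbers; near-identical homeologs can share probes.

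The unequal rise came from the arrays with MCI-HGR, since number 1 was the higher on the ICD arrays too, by a smaller gap. With MCI-HGR, number 1 exceeded number 2 by 4.03-fold for hes1.L and 3.62-fold for hes1.S, while the ICD arrays differed by 1.65-fold and 1.33-fold. The multicilin probe set read higher in number 1 than in number 2 with MCI-HGR as well, at the values given above. Any link between its values and those of hes1 was not tested. Whether the hes1 rise differed between numbers was not tested, since each number holds 1 array of each group and such a fit has no residual degrees of freedom. The 2 within-number differences of hes1.L gave an SE of 0.64 of their own and those of hes1.S 0.72, against 0.23 and 0.27 in the blocked fit, which borrows spread from all probe sets. The small p-values of hes1 therefore rest on that borrowed spread. All blocked p-values borrow it. Of the other probe sets that passed, hes5.5.S had an own SE of 0.50 (Xl2.9271.1.S1_at) and 0.22 (Xl2.9271.1.S1_x_at), against 0.17 and 0.13 blocked. It was 0.25 against 0.12 for hes5.6.L and 0.17 against 0.082 for hey1.S (Xl2.469.1.S1_at). For hes5.3.L, hes5.7.L and hey1.S (Xl2.15880.1.S1_s_at) the own SE was the smaller.

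**Figure D2:**
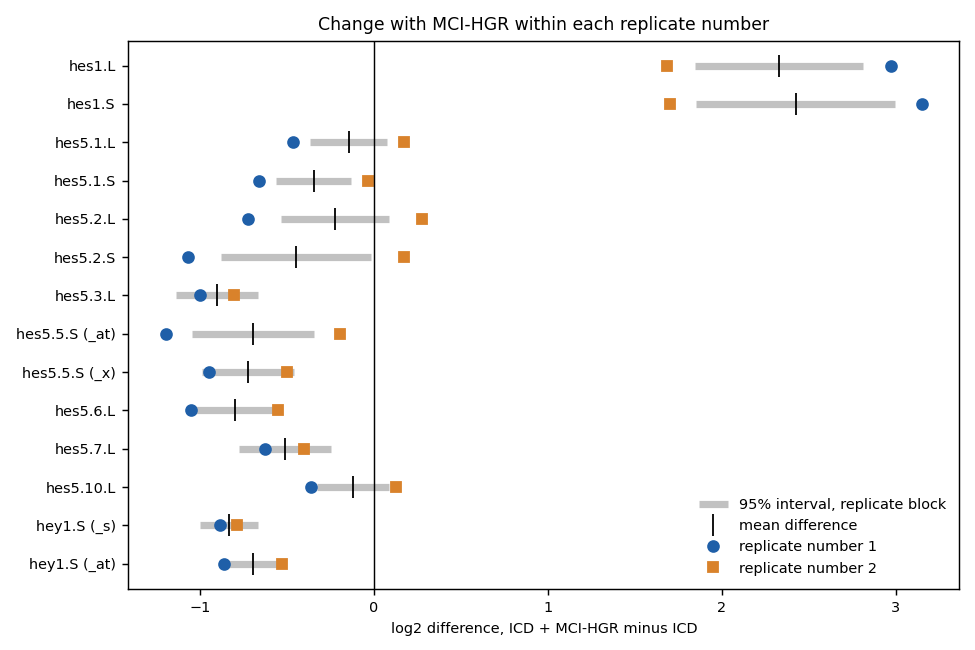
Log2 difference, ICD with MCI-HGR minus ICD, for each probe set: circles are replicate number 1, squares number 2, black ticks their mean and grey bars the 95% interval of the fit with the replicate block. The hes1 probe sets lie at 1.69 to 3.15, and the bars of hes5.1.L, hes5.2.L and hes5.10.L cover 0.

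hey1 went down with MCI-HGR. Its protein belongs to the Hey branch of the family, which has a tyrosine where the corepressor-binding end of Hes proteins has a tryptophan, and it is a direct Notch target in vessels, heart and neural tissue of vertebrates. Of the homeologs, hey1.S was read, by 2 probe sets that share their gene. The first (Xl2.469.1.S1_at) read 4093.8 and 2427.8 on the ICD arrays and 2250.8 and 1682.9 with MCI-HGR. The second (Xl2.15880.1.S1_s_at), whose suffix marks probes shared by several transcripts, read 2840 and 1651.3 on the ICD arrays and 1538.8 and 958.9 with MCI-HGR. In both probe sets all ICD values were above all values with MCI-HGR, as in 11.8% of all probe sets kept.

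By group means hey1.S fell 1.62-fold by the first probe set, a log2 difference of -0.70 ± 0.31 (SE without the block, n = 2 per group; limma, adjusted p = 1.58e-05 with the block, 0.999994 without). By the second it fell 1.78-fold, a log2 difference of -0.83 ± 0.36 (SE without the block, n = 2 per group; limma, adjusted p = 1.35e-06 with the block). Within numbers the fall was 1.82-fold and 1.44-fold by the first probe set and 1.85-fold and 1.72-fold by the second. Both numbers thus went the same way, and number 1 read higher than number 2 in both groups.

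With MCI-HGR the hes5 genes had mean log2 differences from -0.90 to -0.12, all below 0, and part of them passed the test. They are the frog's relatives of the fly Enhancer of split genes, formerly named esr genes, and the genome annotation of assembly v10.1 names 20 of them, of which 9 were read, by 10 probe sets. With the block, 5 of these 10 probe sets, from 4 genes, fell and 0 rose. The other 5, from 5 genes, did not pass, and whether they differ from those that did was not tested. Of all 14 probe sets, 8 were lower in both numbers, against 31.7% of all kept. Both arrays with MCI-HGR were below both ICD arrays in 5 of the 14, against 11.8% of all kept. Over the 10 the median log2 difference was -0.48, with -0.84 in number 1 and -0.11 in number 2, beside -0.015, -0.018 and 0 over all probe sets kept.

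hes5.3.L had the most even fall of the hes5 genes. It read 639.8 and 669 on the ICD arrays and 320.6 and 383.5 with MCI-HGR. All ICD values were above all values with MCI-HGR, and arrays of a group were close to each other. The mean linear signal went from 654 ± 20.6 to 352 ± 44.5 (SD, n = 2). By the means of log2 signal the gene was 1.87-fold lower, with 2.00-fold in number 1 and 1.74-fold in number 2. Its log2 difference was -0.90 ± 0.21 (SE without the block, n = 2 per group; limma, adjusted p = 2.70e-05 with the block and 0.556 without). It was the 1 probe set of the 14 that was lower at an unadjusted p of 0.05 without the block.

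hes5.6.L and hes5.7.L, both listed under the older name esr9, a gene described in the forming somites of frog embryos, fell as well. hes5.6.L read 876.9 and 470.7 on the ICD arrays and 423.5 and 321.6 with MCI-HGR. It fell 1.74-fold by group means, 2.07-fold in number 1 and 1.46-fold in number 2 (log2 difference -0.80 ± 0.37, SE without the block, n = 2 per group; limma, adjusted p = 0.000345 with the block). Its groups did not overlap. hes5.7.L read 569.9 and 265 on the ICD arrays and 370 and 200.9 with MCI-HGR. It fell 1.43-fold, 1.54-fold in number 1 and 1.32-fold in number 2 (log2 difference -0.51 ± 0.49, SE without the block, n = 2 per group; limma, adjusted p = 0.0163 with the block). Here the groups overlapped, because the number 2 array of ICD was below the number 1 array with MCI-HGR. With ICD replicate 1 left out, which breaks the balance of the numbers, the log2 difference of hes5.7.L was 0.041.

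hes5.5.S was read by 2 probe sets of the same design sequence and was the gene most unlike between the numbers on the ICD arrays. The first (Xl2.9271.1.S1_at) read 1105.1 and 316.4 on the ICD arrays and 483 and 276.1 with MCI-HGR. The second (Xl2.9271.1.S1_x_at), whose suffix marks probes that may read related sequences too, read 898.4 and 322.5 on the ICD arrays and 466.5 and 228 with MCI-HGR. The groups overlapped in both, since ICD number 2 lay below number 1 with MCI-HGR.

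By the first probe set hes5.5.S fell 1.62-fold, with 2.29-fold in number 1 and 1.15-fold in number 2 (log2 difference -0.70 ± 0.65, SE without the block, n = 2 per group; limma, adjusted p = 0.0139 with the block). By the second it fell 1.65-fold, with 1.93-fold in number 1 and 1.41-fold in number 2 (log2 difference -0.72 ± 0.60, SE without the block, n = 2 per group; limma, adjusted p = 0.000989 with the block). The fall by the first probe set rests mostly on number 1. With ICD replicate 1 left out, which breaks the balance of the numbers, the log2 difference of hes5.5.S was 0.21 by the first probe set and 0.016 by the second.

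The hes5.1 and hes5.2 genes did not pass in either homeolog. hes5.1 is the gene long called esr1, a Notch target of the early neural plate. hes5.1.L read 3814.1 and 2080.4 on the ICD arrays and 2768.2 and 2343.6 with MCI-HGR, which is lower in number 1 and higher in number 2. Its log2 difference was -0.15, with a 95% interval of -0.37 to 0.077 (limma, adjusted p = 0.566, all with the block). hes5.1.S read 4103.2 and 3191.2 on the ICD arrays and 2597.7 and 3119.4 with MCI-HGR, so its groups did not overlap.

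The log2 difference of hes5.1.S was -0.66 in number 1 and -0.033 in number 2, and it narrowly missed the threshold (limma, adjusted p = 0.0529 with the block, 0.00908 where 1 probe set stood for each gene). Its blocked 95% interval of -0.56 to -0.13 lay below 0. It passed in 2 of 5 fits with the block, the last named and that with 16 added before log2 (limma, adjusted p = 0.0132).

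hes5.2, formerly esr7, gave the same picture in both homeologs. hes5.2.L read 2673.5 and 1247.3 on the ICD arrays and 1616.5 and 1508.2 with MCI-HGR, and hes5.2.S read 421.1 and 206.6 on the ICD arrays and 200.6 and 233 with MCI-HGR. Both were lower in number 1, at log2 differences of -0.73 and -1.07, and higher in number 2, at 0.27 and 0.17. Their mean differences were -0.23, with a 95% interval of -0.54 to 0.084, and -0.45, with one of -0.88 to -0.019 (limma, adjusted p = 0.507 and 0.27, all with the block). In number 1 the array with MCI-HGR was the lower of its pair for each of these 4 probe sets, and in number 2 for hes5.1.S alone.

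hes5.10.L, formerly esr6e, was isolated as a Notch target of the embryonic frog skin in which ciliated cells form. It read 2031.4 and 1779.2 on the ICD arrays and 1578.8 and 1942.8 with MCI-HGR, with overlapping groups. Its log2 difference was -0.12, with a 95% interval of -0.32 to 0.088 (limma, adjusted p = 0.631, all with the block). It was lower in number 1, at -0.36, and higher in number 2, at 0.13.

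**Figure D3:**
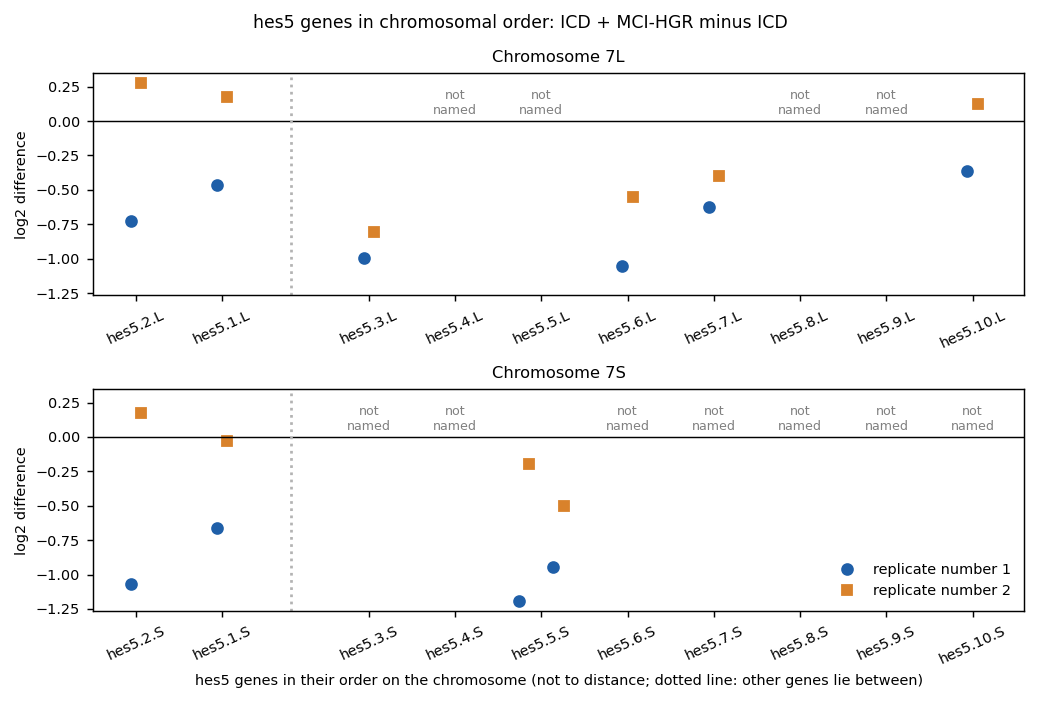
The hes5 genes in their order along chromosomes 7L and 7S (equal spacing, not distance), with the log2 difference of each probe set, ICD with MCI-HGR minus ICD, in replicate number 1 (circles) and 2 (squares). Genes with no probe set named for them are marked. The probe sets of hes5.3, hes5.5, hes5.6 and hes5.7 lie below 0 in both numbers, as does hes5.1.S of the shorter run (-0.66 and -0.033). Those of hes5.2.L, hes5.1.L, hes5.2.S and hes5.10.L lie on both sides of 0.

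In the RefSeq annotation of assembly v10.1, used for names and gene order, the hes5 genes lie in 2 separate runs with no other protein-coding gene inside a run. On chromosome 7L, hes5.2.L and hes5.1.L are neighbours, and hes5.3.L to hes5.10.L form a run of 8, of which 4 were read. Chromosome 7S has the same layout, and there 1 of the run of 8 was read. The 4 genes that fell (hes5.3.L, hes5.5.S, hes5.6.L and hes5.7.L) all lie in the longer run, in which hes5.10.L, at the far end, did not pass. The 4 genes of the shorter run did not pass, though hes5.1.S was lower in both numbers and passed in 2 of 5 fits with the block. The difference between the runs was not tested, nor was whether probe sets of similar hes5 genes read each other's RNA. Of 14 other genes within 3 genes of a hes1, hes5 or hey1 gene that had a probe set, 13 were kept and 2 rose with the block: zc2hc1a.S near hey1.S (29.2 and 23.2 to 82.5 and 52.7) and atp13a4.S near hes1.S (44.4 and 10.4 to 323.4 and 12.7). None of the 13 fell. Among all genes, with 1 probe set each, 5.74% rose and 2.56% fell, so these few neighbours allow no reading against the background.

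The replicate numbers themselves differed in most of these genes, a comparison made after the values were seen. In the blocked fit, 10 of the 14 probe sets were higher in number 1 and 0 in number 2, against 24.6% and 15.8% of all 24404 (limma, adjusted p at 0.05). With each array centred on its median, 9 were higher in number 1 and 2 in number 2, against 12.8% and 27.8% of all, so the direction of part of this depends on the scaling. On the ICD arrays number 1 exceeded number 2 most for hes5.5.S, by 3.49-fold for the first probe set, and the gap of hes5.2.L was 2.14-fold. hes5.3.L differed by 1.05-fold the other way.

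With MCI-HGR the gap between the numbers was smaller for hes5.1.L, at 1.18-fold against 1.83-fold on the ICD arrays, and for hes5.2.L, at 1.07-fold against 2.14-fold. For hes1 it was wider, as given above. For each of the 10 hes5 probe sets the log2 difference with MCI-HGR was lower in number 1 than in number 2, and for all but hes5.3.L the ICD array of number 1 was the brighter.

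**Figure D4:**
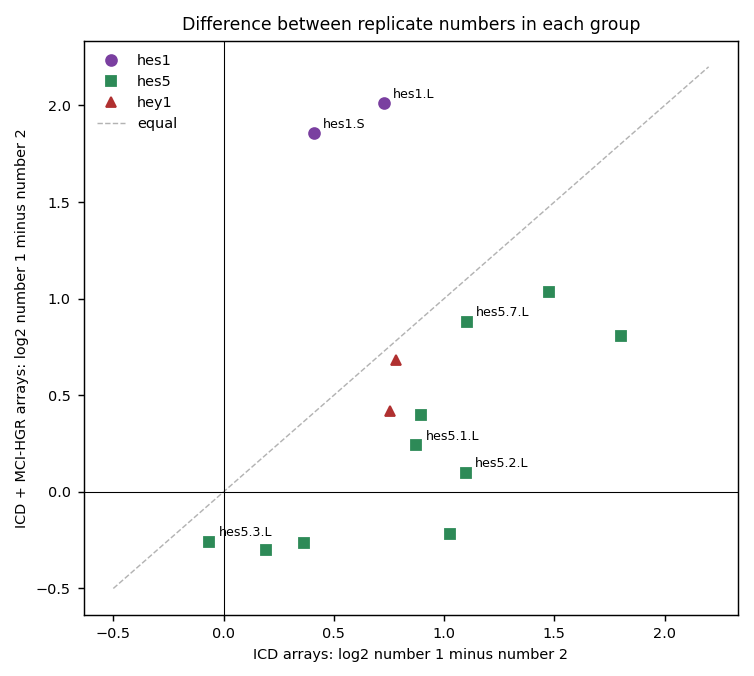
Log2 signal of replicate number 1 minus number 2 on the ICD arrays (horizontal) and on the arrays with MCI-HGR (vertical), for the 14 probe sets of hes1 (circles), hes5 (squares) and hey1 (triangles); the dashed line marks equality. The hes1 points lie above the line and every hes5 and hey1 point lies below it.

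Markers of other tissues moved with the replicate number too. Over all 24404 probe sets the blocked fit had 24.6% higher in number 1 and 15.8% higher in number 2. With 1 probe set per gene these shares were 28.4% and 20.3%. Whether the counts below, and those of endoderm, hold with each array centred was not tested. Of 23 genes of mesoderm, organizer and notochord that were kept, 11 were higher in number 1 and 2 in number 2, and the summed signal of the 40 on the array was 5812.5 and 1486 in ICD and 3350.6 and 1341.9 with MCI-HGR. Of 28 epidermal markers 2 were higher in number 1 and 19 in number 2, with summed signals of 79659.5 and 118324.6 in ICD and 83287.8 and 116089.9 with MCI-HGR. Of 17 neural plate and crest markers 8 were higher in number 1 and 5 in number 2, with sums of 15171.5 and 11964 in ICD and 14373.6 and 12827.9 with MCI-HGR. The explants read strongly for epidermal genes, and 28 of the 32 epidermal markers were above the highest tag control on all arrays, as were 15 of the 40 of mesoderm and 15 of the 25 of neural plate and crest.

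Between the groups, with the block, 1 mesodermal gene rose and 3 fell, 3 neural or crest genes rose and 3 fell, and 3 epidermal genes rose and 5 fell. Of 13 endodermal markers that were kept, 2 rose and 0 fell, 4 were higher in number 1 and 1 in number 2, and the summed signal of the 19 on the array was 1263.4 and 987.2 in ICD and 1938.8 and 1074.5 with MCI-HGR. The 2 were sox7.L (77.4 and 34.7 to 617.7 and 241.4; limma, adjusted p = 2.15e-09 with the block), which rose 7.45-fold by group means, and foxa1.S (37.1 and 48.2 to 74.9 and 90.3; limma, adjusted p = 0.00949 with the block). The homeolog foxa1.L was lower in both numbers (25 and 81.6 to 21.4 and 34.7) and did not pass (limma, adjusted p = 0.195 with the block). Over the 13 endodermal genes the median log2 difference was 0.056. For genes, with 1 probe set each, the background was 5.74% of 9380 rising and 2.56% falling. The notochord genes not.L (890.7 and 201.1 to 382.6 and 103.3) and not.S (284.5 and 86.5 to 107.9 and 36.2) fell. The other mesodermal gene that fell was tbx6.L (105.3 and 57.7 to 57.4 and 35.8). On the same list, tbxt.L (668.9 and 13.2 to 273.1 and 22.2) and tbxt.S (930.4 and 12 to 474.1 and 25.8) did not pass. Both were lower with MCI-HGR in number 1 and higher in number 2, as were both copies of vegt and wnt8a.L, which did not pass either. The organizer gene gsc.S (23 and 8.8 to 192.7 and 38.4) and the neural gene sox2.L (1152.2 and 399.1 to 1824.7 and 1054.5) rose. The gsc.S value of 8.8, on ICD number 2, was below that array's highest tag control of 10, and gsc.L (8.7 and 10.4 to 13.5 and 12) did not pass. Of the neural and crest list, pax3.L and ncam1.L also rose, and the 3 that fell were snai1.S, sox11.S and msx1.L. All the marker genes named here were chosen after their values were seen. The part of other tissues in the changes of hes1, hes5 and hey1 was not tested.

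Most of the other Notch pathway genes that passed were on the list of other targets, which, like the other lists, was chosen with earlier results known. Of 74 genes in 7 lists that were kept, 2 rose and 7 fell with the block, beside 5.74% and 2.56% of all genes. On the list of other targets were 8 of those 9. Of the 11 genes kept on a list labelled proneural, neurog2.S is a proneural gene, and it read 11.3 to 23.2. The others are copies of tcf3, tcf12, ebf2, ebf3, elavl3, tubb2b and myt1, so the list says little about proneural genes. Lists of 6 ligand genes, 1 receptor gene, 18 genes of ligand and receptor processing and 13 of the nuclear complex and corepressors had 0 in either direction. So did the 11, by limma with the block and without it. At an unadjusted p of 0.05, 7 of these 48 different genes were called with the block and 0 without. The share of all genes called at that unadjusted p with the block was not taken, so the 7 allow no reading. Of 7 other Hes and Hey family genes, 1 fell, hes4.S. hes4, known in the frog as hairy2, is a close relative of hes1. Its hes4.L copy read 2848.8 and 3619.2 on the ICD arrays and 2904 and 3539.4 with MCI-HGR, a log2 difference of -0.0022 (limma, adjusted p = 0.992 with the block), and hes4.S fell by 0.30 on the log2 scale (limma, adjusted p = 0.0324 with the block). The suffix of the hes4.S probe set (Xl2.25977.2.S1_x_at) marks probes that may read related sequences too.

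Of 19 genes kept on the list labelled other targets, 2 rose and 6 fell, beside 5.74% and 2.56% of all genes. The list was chosen with earlier results known and holds both homeologs of some genes. The 2 that rose are id2.S and id4.S. Of the 6 that fell, 4 are the copies of tp63 and ccnd1, and the others are nrarp.S and gmnn.S. The list is broad, and whether Notch acts on its genes in these explants was not tested. Its genes named by the rule include tp63.S, the regulator of basal epidermal cells, which read 329.1 and 745.8 on the ICD arrays and 119.1 and 302.6 with MCI-HGR (limma, adjusted p = 7.57e-07 with the block). Both copies of tp63 are on the epidermal list as well, where 3 genes rose and 5 fell with the block. Both copies of grhl3 were among those that rose. grhl3.S went from 506.5 and 788.8 to 1676.4 and 1413.2 (limma, adjusted p = 7.76e-06 with the block). grhl3.L went from 750.4 and 922.6 to 1581.5 and 1152.4 (limma, adjusted p = 0.00167 with the block). tp63.L read 55.8 and 87 on the ICD arrays and 24.9 and 47.8 with MCI-HGR (limma, adjusted p = 0.0115 with the block). id4.S, an inhibitor of basic helix-loop-helix factors, rose from 496.2 and 511.4 to 810.8 and 708.2 (limma, adjusted p = 0.00127 with the block). nrarp.S, a direct Notch target that feeds back on the pathway, fell 1.22-fold (4670.9 and 6273 to 3501.8 and 5592.1; limma, adjusted p = 0.0117 with the block); it was chosen after its value was seen. The ligand gene dll1.L read 177.2 and 211.4 on the ICD arrays and 332.6 and 213.2 with MCI-HGR, and the receptor gene notch1.S 661.4 and 499.5 and 553.2 and 359.5 (limma, adjusted p = 0.163 and 0.0576 with the block). Neither passed, so both stand outside the naming rule. The log2 difference of dll1.L was 0.91 in number 1 and 0.012 in number 2. Whether the notch1.S probe set reads the injected ICD mRNA was not tested.

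**Figure D5:**
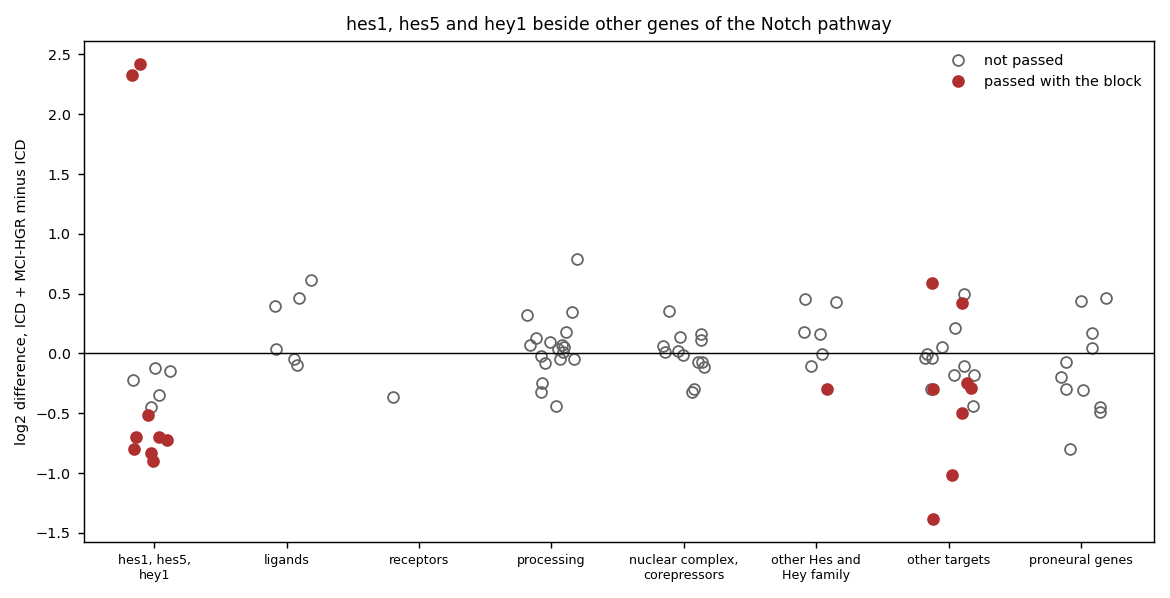
Log2 difference, ICD with MCI-HGR minus ICD, of the 14 hes1, hes5 and hey1 probe sets and of 7 lists of other Notch pathway genes (1 probe set per gene; horizontal scatter within a list has no meaning). Filled points passed an adjusted p of 0.05 with the replicate block. The hes1 points at 2.33 and 2.42 lie above all other points shown. No gene of the lists of ligands, receptors, processing, nuclear complex or proneural genes is filled.

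Genes with the pattern most like each of 3 reference genes were found from the Euclidean distance between log2 signals over the 4 arrays, each centred on its own mean. Nearest to hes1.S were dmrta2.S (16.6 and 13.3 to 204.6 and 60.3), at a distance of 0.487, then crip1.L at 0.522 and obi1.L (189.7 and 87.3 to 822.5 and 312.1) at 0.747. crip1.L read 7.9 and 6.3 on the ICD arrays, below the highest tag control of each, and dsc3.S, named next, read 10 and 7.4 with MCI-HGR, also below it. Nearest to hes5.3.L were dnaja4.2.S, thbs1.S and copb2.S, at distances of 0.0933 to 0.126, and nearest to hey1.S were dsc3.S, ski.L and lmnb3.L, at 0.0391 to 0.0511. Of these 6 genes, thbs1.S passed with the block (162.2 and 184.9 to 90.5 and 107.2; limma, adjusted p = 0.00359). With 4 arrays many genes share a pattern, and the distances are a description.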

How the data were processed

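RNA of 4 explant samples was read on 1 array each. The deposited values are signal intensities, linear and unlogged, 1 per probe set and array. MAS5 is the tool that the submitters' processing notes name; neither its version nor its scaling target is known here. Since MAS5 handles arrays one by one, differences between whole arrays remain, and dim signals are noisy. The 96 control probe sets were left out, log2 was taken, and the lowest 25% by mean were removed, which left 24404 probe sets and all 14 described. Names came from the platform annotation (15495 probe sets with 1 symbol, 279 with several, 16765 unnamed here) and from RefSeq's genes for assembly v10.1, which held 15384 of the named and updated 2 symbols.

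The comparison used limma (3.58.1, under R 4.3.3; lmFit, eBayes with intensity trend, two-sided) without a block, as planned, and with the replicate number as a block. The blocked fit has 1 residual degree of freedom and a prior of 15.1. It is printed because arrays of a number were alike; with 2 pairs, and labels that do not say what a number marks, the pairing is not established, and p-values cover no more than the spread of these arrays, which may be technical. An exact permutation of 2 against 2 cannot go below p = 0.333 and was not used. The fit was tested on simulated data. The simulated spread depended on mean signal alone, so it does not bear on genes with a larger spread of their own, such as hes1. Members and gene lists were chosen with earlier results of these data known. Named by rule were all 14 probe sets, Notch pathway list genes that passed with the block at a log2 difference of 0.5 or more, up to 4 per list, and the 3 nearest genes by pattern.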

Additional observations from a re-analysis of the deposited data

How the results depend on the processing

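Without the block, limma called 0 of all probe sets, 0 of the 14 and 0 of the other Notch pathway probe sets, and this held with each array centred on its median, quantile normalization, no filter, the lowest 50% removed, 16 added before log2, 1 probe set per gene and no intensity trend. Leaving out 1 array gave 0 to 126 calls over all probe sets, and 0 to 0 among the 14 and among the Notch pathway probe sets. With the replicate block the counts were 1693 of all, 9 of the 14 and 14 of the Notch pathway probe sets. They were 1500, 9 and 15 with the block and quantile normalization, and, in fits added after the data were seen, 1940, 10 and 17 with the block and 16 added, 1554, 9 and 11 with the block and centring, and 941, 8 and 12 with the block and 1 probe set per gene. Over the 5 fits with the block, hes1, hes5.3.L, hes5.5.S, hes5.6.L, hes5.7.L and hey1.S passed in each fit that held the probe set, and hes5.1.S in 2 of 5 (adjusted p = 0.00908 to 0.127). No sign changed among the 14 under a scaling, filter or offset. Leaving out 1 array breaks the balance of the numbers and turned 7 signs. Without ICD replicate 1 these were hes5.1.L (0.29), hes5.2.L (0.32), hes5.2.S (0.065), hes5.5.S (0.21 and 0.016) and hes5.7.L (0.041). Without ICD_MCI-HGR replicate 1 it was hes5.10.L (0.031). The lowest values of these probe sets, in the same order, were -0.58, -0.78, -0.96, -1.60, -1.46, -1.06 and -0.27. Of these genes, hes5.5.S and hes5.7.L are among those that fell with the block, so the direction of their change depends on ICD replicate 1. With 1 array left out, hes1.L ran from 1.32 to 3.33 and hes1.S from 1.50 to 3.35, with the highest without ICD_MCI-HGR replicate 2 and the lowest without replicate 1; without ICD replicate 1 and without ICD replicate 2, hey1.S was at -0.32 and -1.07 by its first probe set and -0.44 and -1.23 by its second, and hes5.6.L at -0.35 and -1.25. hes5.3.L ran from -1.03 to -0.77 and hes5.1.S from -0.53 to -0.16. In these fits the lone array was assumed to vary like the other group.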
